A study of Homo sapiens with 9 samples.

Results

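The lysosome is the acidic compartment in which cells break down proteins, glycans, and lipids. Its hydrolases are made in the endoplasmic reticulum and sorted through the Golgi, and its limiting membrane holds heavily glycosylated proteins, ion channels, and transporters that let the products out. Many of its genes are known from inherited storage diseases, and in pigment cells several of the same proteins also serve the melanosome, a lysosome-related organelle.

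A set of 39 such genes was followed in MP41 cells, a uveal melanoma line, after transfection of a synthetic miR-16 or of the control mimic miR-CTR. The set was chosen by gene symbol as enzymes and membrane proteins of the lysosome, and all 39 were found among the 14839 genes of the normalized table. Cells were maintained in the same serum-containing medium, and both mimics were given at 66 nM with the same lipid reagent. PolyA RNA was sequenced at 6, 12, 24, and 48 h, besides 1 library at 0 h. The title of the 0 h library names the control mimic, and the library was read as the starting point before transfection. Each of the 9 conditions had 1 library, so that no difference below has a replicate check and no p-value is given. The columns of the table number the times without hours, and these numbers were read in rising order. All cells came from 1 line, and no gene was deleted or introduced in any condition.

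The values are log2 of normalized reads plus 1. The logFC at a time is the miR-16 value minus the miR-CTR value at that time, the early logFC is its mean over 6 and 12 h, and the late logFC its mean over 24 and 48 h. A gene past 0.5 in size was called. The counting SE given with a logFC comes from the numbers of reads alone and does not cover the spread between cultures. Between 20280000 and 27370000 reads were recovered per library. The 8 melanocyte markers examined were all listed, with TYRP1 between 17.45 and 17.88 and PMEL between 16.54 and 17.47, and their summed level lay between 18.61 and 18.95 in all 9 libraries, a sum in which these most abundant genes weigh most. DCT varied most, between 12.29 and 14.38. Of 7 markers of other cell types only COL1A1 was listed, between 8.04 and 8.86. In bulk RNA, fewer cells that express a gene and less RNA per cell cannot be told apart.

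The sequences of the mimics set which mRNAs they can pair with. The mature miR-16 of RefSeq is encoded by MIR16-1 on chr13:50049027-50049048 (reverse strand) and MIR16-2 on chr3:160404754-160404775 (forward strand, both in GRCh38.p14). The control sequence is that of a biotinylated oligonucleotide of the study. Its row carries the name of miR-16, and the row named for the control carries the miR-16 sequence, so these names were taken as swapped, and the transfected miR-CTR was assumed to have the same sequence. Capitals mark the seed, bases 2 to 8.
miR-16: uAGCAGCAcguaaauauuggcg
control sequence: uUGUACUAcacaaaaguacug

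Matches to these seeds were sought in the longest annotated 3′UTR of each gene, as a 7mer-m8 (TGCTGCT for miR-16, TAGTACA for the control sequence), as an 8mer (TGCTGCTA or TAGTACAA), or as a 7mer-A1 (GCTGCTA or AGTACAA). A miR-16 match was found in 11 of the 39 members (28.2%), beside 29.2% of 11570 protein-coding genes of the table, and an 8mer in 1 member (2.6%, beside 5.0%). A control sequence match was found in 6 members (15.4%, beside 14.7%). The shares thus lay close to those of all genes, although the median 3′UTR of the members was shorter, 915 bases beside 1420. The annotated 3′UTR of GLA has 6 bases and cannot hold a match. The matches of the members discussed first are printed because they differ in kind, with the matched bases in capitals and all positions on GRCh38.
SMPD1, 7mer-m8 for miR-16 at chr11:6394667-6394673 (+): aagcccaaaTGCTGCTgtggttcaa
SMPD1, 7mer-m8 for miR-16 at chr11:6394938-6394944 (+): accctgtacTGCTGCTgcgacctga
PPT1, 8mer for miR-16 at chr1:40072849-40072856 (-): ccgtgttggTGCTGCTAagtttagcc
CTSH, 7mer-m8 for miR-16 at chr15:78921271-78921277 (-): ccatgaagtTGCTGCTgcttcctga
TMEM106B, 8mer for the control sequence at chr7:12232251-12232258 (+): cttcccctaTAGTACAAtaaataatt
TMEM106B, 8mer for the control sequence at chr7:12234939-12234946 (+): cttactaagTAGTACAActggagcaa

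In the late window 4 of the 39 members lay below -0.5, SMPD1, MFSD12, TPCN2, and GLA, beside 5.73% of all genes. The 2 members above 0.5 were TMEM106B and IDUA, beside 7.76% of all genes. In percent, 10.3 of the members were called down and 5.1 up. The median late logFC of the members was -0.08, with the middle of the list between -0.21 and 0.09 (quartiles), and that of all genes was 0.01. Of the members, 23 lay below 0 and 16 above. The late logFC of 14 members was within 0.1 of 0, beside 29.3% of all genes. Called members were thus few, and the list as a whole lay near all genes. Their values stand apart from each other, and each is described with its course.

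SMPD1 (ENSG00000166311.9, chr11:6390431-6394998, forward strand) encodes acid sphingomyelinase, which turns sphingomyelin into ceramide and is deficient in Niemann-Pick disease types A and B. Its value was 9.73 at 0 h. With miR-CTR it was 9.93, 9.93, 10.03, and 10.37 at 6, 12, 24, and 48 h, and with miR-16 it was 9.66, 9.03, 8.62, and 8.53. The miR-16 libraries were lower at every time, and their distance from miR-CTR grew from -0.27 at 6 h to -1.84 at 48 h. The late logFC was -1.62 (counting SE 0.06), that is a level 3.08-fold lower with miR-16. The late change since 0 h was -1.16 with miR-16 and 0.47 with miR-CTR. SMPD1 was the only member called down in the early window, with an early logFC of -0.58, beside 1.45% of all genes. It is also 1 of the 2 members with more than 1 miR-16 match in the 3′UTR. The other, CTSH, encodes the aminopeptidase cathepsin H, holds 2 overlapping matches, and had a late logFC of 0.42. PPT1, the palmitoyl thioesterase deficient in a form of ceroid lipofuscinosis, holds the 8mer printed above and had a late logFC of -0.31, although 23.4% of its exonic length overlaps CAP1 on the opposite strand. The members with a miR-16 match had a median late logFC of -0.10 and those without one -0.08. Over all protein-coding genes these medians were -0.09 and 0.01, and the 1109 genes with at least 2 miR-16 matches, SMPD1 and CTSH included, had a median of -0.13, with 148 (13.3%) below -0.5. Whether miR-16 acts on any of these matches was not tested.

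**Figure D1:**
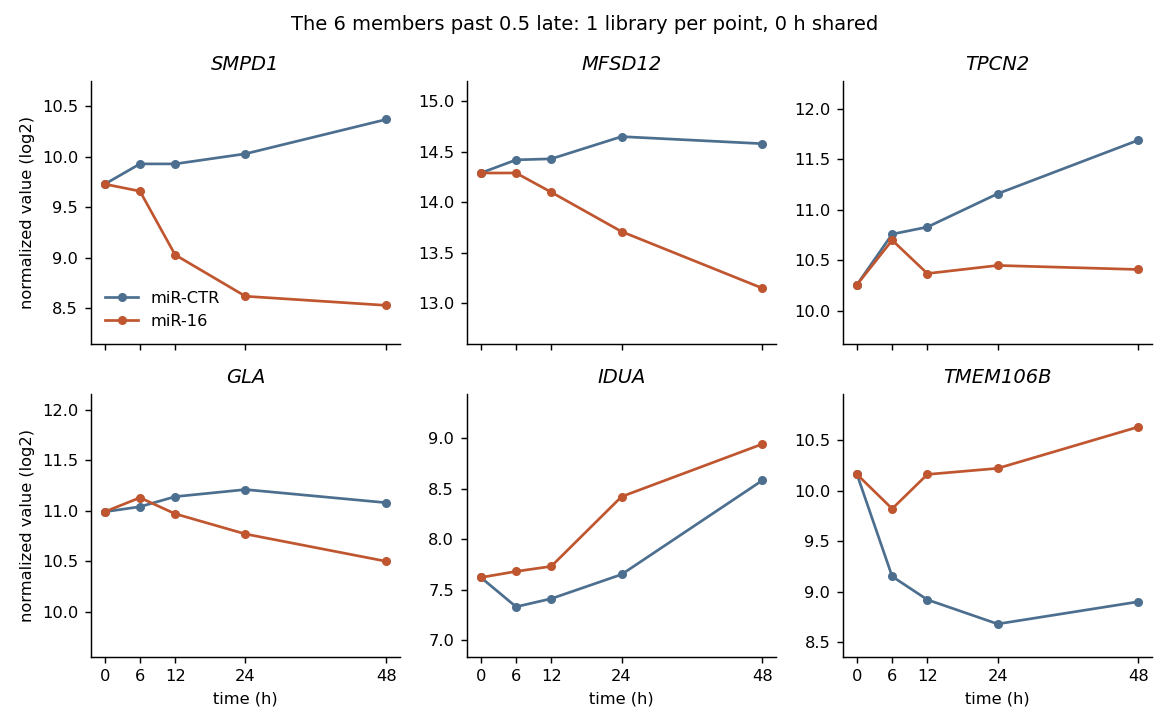
Normalized values (log2, vertical axis) over time (h, horizontal axis) for the 6 called members, with miR-CTR in blue and miR-16 in orange; each point is 1 library, both lines start from the same 0 h library, and every panel spans the same range of log2 units. The lines part in opposite ways: for SMPD1 and MFSD12 the miR-16 line descends, for TPCN2 the miR-CTR line ascends from 10.26 to 11.69 while the miR-16 line ends at 10.41, and for TMEM106B the miR-CTR line drops from 10.16 to 8.90.

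MFSD12 (ENSG00000161091.12, chr19:3538261-3574290, reverse strand) encodes a membrane protein required for the import of cysteine into melanosomes and lysosomes, and it is a known pigmentation gene. It was 1 of the 3 most abundant members per length, with 3796 normalized reads per kb of exon at 0 h. Its log2 value was 14.29 at 0 h. It was 14.42, 14.43, 14.65, and 14.58 with miR-CTR over the 4 times and 14.29, 14.10, 13.71, and 13.15 after miR-16. The miR-16 values were lower at every time, and the order of the miR-16 libraries followed time from 6 h on. The late logFC was -1.18 (counting SE 0.01), or 2.27-fold lower, and at 48 h the level was 2.69-fold lower. The share of MFSD12 in all normalized reads was 0.105% at 48 h with miR-CTR and 0.039% with miR-16. No miR-16 match lies in its 3′UTR of 511 bases, but 6 lie in its coding sequence of 1443 bases, 3 of them overlapping in a run of CTG triplets. Of its exonic length 10.7% overlaps a gene on the opposite strand. At least 6 coding matches were found in 0.8% of protein-coding genes. An isolated match and the middle of the run are printed, on the reverse strand.
MFSD12, coding, chr19:3557270-3557276 (-): tcacctaccTGCTGCTctacctgca
MFSD12, coding, chr19:3557216-3557222 (-): cggggctgcTGCTGCTgctgggcca

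Coding matches, here and above, were counted in 1 transcript per gene, that with the longest 3′UTR. Another transcript of a gene can give another count. At least 4 coding matches were found in 5 members, beside 2.9% of protein-coding genes. CTSA, with 8, had a late logFC of -0.21, TPCN1, with 7, had 0.03, and MFSD12, with 6, had -1.18. TPCN2, with 4, had -0.99, and LAMP1, also with 4, had -0.10. Of these 5 members 2 were called down, MFSD12 and TPCN2, beside 5.73% of all genes. The cutoffs of 4 and 6 are the match counts of TPCN2 and MFSD12 themselves, so these calls are no separate check of the matches. The share called among all genes with at least 4 coding matches was not computed. The median late logFC of the 22 members with a coding match was -0.08 and that of the others -0.10, and over all protein-coding genes these medians were -0.04 and 0.01. The part of these matches in the late logFC was not tested.

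TPCN2 (ENSG00000162341.16, chr11:69048897-69162440, forward strand) encodes two-pore channel 2, a cation channel of endolysosomes and melanosomes. Its value was 10.26 at 0 h. It was 10.76, 10.83, 11.16, and 11.69 with miR-CTR and 10.70, 10.37, 10.45, and 10.41 after miR-16. Both mimics gave values above 0 h at all times, but the miR-CTR values went on upward and the miR-16 values stayed within a narrow range. The late logFC was -0.99 (counting SE 0.03). Against 0 h the late miR-16 value was 0.17 higher and the late miR-CTR value 1.17 higher, so that the sign of the miR-16 change depends on the reference. TPCN1 (ENSG00000186815.12), the other two-pore channel, was 9.90 at 0 h, 10.17, 9.90, 10.01, and 10.33 with miR-CTR, and 10.27, 9.90, 10.07, and 10.32 after miR-16. Its values with the 2 mimics were within 0.1 of each other at every time, and the late logFC was 0.03 (counting SE 0.04).

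GLA (ENSG00000102393.10) encodes α-galactosidase A, the enzyme lacking in Fabry disease. Its value was 10.99 at 0 h, 11.04, 11.14, 11.21, and 11.08 with miR-CTR, and 11.13, 10.97, 10.77, and 10.50 after miR-16. The miR-16 value was the higher one at 6 h and the lower one from 12 h. The late logFC of -0.51 (counting SE 0.03) lay at the threshold, and scaling by total reads, by quantiles, or by the median gene brought it just inside, to between -0.50 and -0.48. Just inside the threshold on the same side lay MCOLN1 (-0.46), the calcium channel TRPML1, and GRN (-0.41), the precursor of the granulins. Both passed -0.5 at 48 h, where 6 members were below it (15.4%, beside 8.96% of all genes). Above 0.5 at 48 h were 2 members (5.1%, beside 10.4% of all genes), TMEM106B and GAA.

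TMEM106B (ENSG00000106460.18, chr7:12211241-12243367, forward strand) encodes a glycoprotein of late endosomes and lysosomes that modifies the risk of frontotemporal lobar degeneration. Its value was 10.16 at 0 h. It was 9.15, 8.92, 8.68, and 8.90 with miR-CTR and 9.82, 10.16, 10.22, and 10.63 after miR-16. The miR-CTR values were lower than every miR-16 value and than 0 h from the first time on. The late logFC was 1.64 (counting SE 0.06), a 3.11-fold higher level with miR-16, and the early logFC of 0.95 made it the only member called up early, beside 2.04% of all genes. The late change since 0 h was -1.37 with miR-CTR and 0.27 with miR-16, the larger distance from 0 h being that of the miR-CTR libraries. The 2 control sequence 8mers printed above lie in its 3′UTR of 11392 bases, which has no miR-16 match. Besides TMEM106B, 12 of the 11570 protein-coding genes have at least 2 such 8mers. The median late logFC of these 12 was 0.24, and 3 of them were above 0.5, beside 7.76% of all genes. The part of these matches in the low miR-CTR values was not tested.

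IDUA (ENSG00000127415.12) encodes α-L-iduronidase, which degrades heparan and dermatan sulfate. Its value was 7.62 at 0 h, 7.33, 7.41, 7.65, and 8.58 with miR-CTR, and 7.68, 7.73, 8.42, and 8.94 after miR-16. The miR-16 values were higher at every time, and both mimics ended above 0 h. The late logFC was 0.57 (counting SE 0.08), with 0.77 at 24 h and 0.36 at 48 h. Of its exonic length 13.3% overlaps SLC26A1 on the opposite strand, and without stated strand counting reads of the 2 genes cannot be told apart. Just inside the threshold on this side were CTSH (0.42), GAA (0.40), and the sulfatase GALNS (0.39).

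The other membrane proteins differed less. LAMP1 and LAMP2 are the most abundant glycoproteins of the lysosomal membrane and its usual markers. LAMP1 (ENSG00000185896.10) was 12.49 at 0 h, 12.65, 12.54, 12.46, and 12.35 with miR-CTR, and 12.61, 12.41, 12.40, and 12.22 after miR-16. LAMP2 (ENSG00000005893.15) was 12.37 at 0 h, 12.29, 12.27, 12.44, and 12.54 with miR-CTR, and 12.28, 12.30, 12.34, and 12.41 after miR-16. Their late logFC was -0.10 and -0.11, each with a counting SE of 0.02, so that neither marker was called. Each holds 1 miR-16 7mer-m8 in its 3′UTR. SCARB2, which carries glucocerebrosidase to the lysosome, had a late logFC of 0.05, and the cholesterol exporters NPC1 and NPC2 had 0.20 and -0.11. Of the 5 channels and transporters 4 were below 0, beside 49.1% of all genes, with a median of -0.46. The 2 called down were MFSD12 and TPCN2, described above, beside 5.73% of all genes. CLN3, affected in juvenile Batten disease, had a late logFC of -0.34, and 25.2% of its exonic length overlaps another annotated gene on the same strand.

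The soluble enzymes lay on both sides of 0. The 8 proteases ranged from -0.21 (CTSA, the protective protein of NEU1 and GLB1) to 0.42 (CTSH), and none was called. CTSZ (ENSG00000101160.13), a carboxypeptidase and the most abundant member with 8920 reads per kb at 0 h, was 14.15 at 0 h, 14.04, 14.18, 14.27, and 14.49 with miR-CTR, and 14.06, 14.19, 14.34, and 14.59 after miR-16. Its late logFC was 0.09 (counting SE 0.01). CTSK, the collagenase of osteoclasts, was the least abundant member, with 9.91 reads per kb and 18 to 29 reads in a library, and the 95% counting interval of its late logFC, -0.45 to 0.63, spans 0, so that a difference between the mimics was not detectable at this depth. The 10 glycosidases ranged from -0.51 (GLA) to 0.57 (IDUA) with a median of -0.07. The 5 sulfatases ranged from -0.21 (ARSA) to 0.39 (GALNS) with a median of 0.07. ASAH1, the acid ceramidase that acts on the product of SMPD1, had a late logFC of 0.09. PSAP (ENSG00000197746.13), the precursor of the saposins that present sphingolipids to these enzymes, was the second most abundant member per length, with 6492 reads per kb. It was 14.36 at 0 h, 14.34, 14.44, 14.59, and 14.66 with miR-CTR, and 14.45, 14.35, 14.45, and 14.43 after miR-16, and its late logFC was -0.18 (counting SE 0.01).

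**Figure D2:**
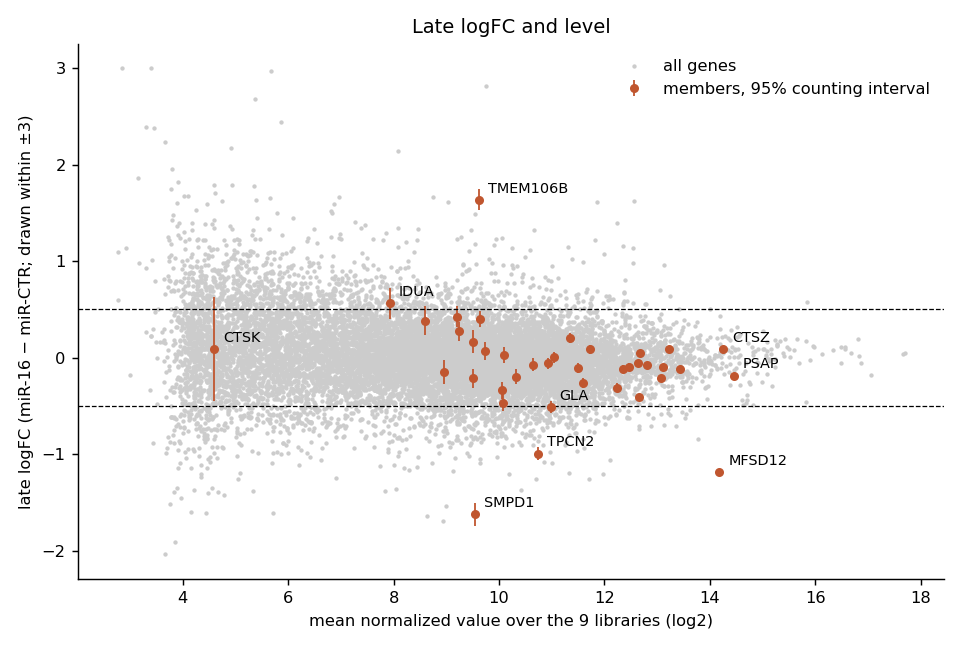
Late logFC (miR-16 minus miR-CTR, vertical axis) against the mean normalized value over the 9 libraries (log2, horizontal axis), with all genes in grey and the 39 members in orange with 95% counting intervals; dashed lines mark 0.5 in size, and 2 genes beyond 3 are drawn at 3. SMPD1 at -1.62, MFSD12 at -1.18, and TMEM106B at 1.64 lie outside the bulk of genes of their level, and the interval of CTSK crosses both sides of 0.

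Much of what the members shared was a course over time with either mimic. Late values were above 0 h for 33 of 39 members in the control libraries and for 29 after miR-16, beside 49.4% of all genes in each case. The median late change since 0 h was 0.33 for miR-CTR and 0.27 for miR-16, while all genes had medians of 0.00 and -0.01. Other lysosomal lists, described further below, had smaller medians with miR-CTR and miR-16. These were 0.14 and 0.18 for further hydrolases and 0.11 and 0.055 for further membrane proteins. V-ATPase subunits had 0.015 and 0.005, and sorting genes 0.088 and -0.07. The changes with miR-CTR and miR-16 are taken against the same 0 h library and are not independent of each other. Time in culture and transfection itself cannot be told apart in them. With miR-CTR, 8 members were above 0.5 (20.5%, beside 11.0% of all genes) and 2 below -0.5 (5.1%, beside 9.79%). With miR-16, 10 were above 0.5 (25.6%, beside 14.1%) and 4 below -0.5 (10.3%, beside 11.7%). At both 24 and 48 h, and with both mimics, 24 members were above 0 h, beside 28.7% of all genes.

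Past 0.5 with both mimics were 6 members (15.4%, beside 7.79% of all genes), GAA, CTSF, NAGLU, NPC1, ASAH1, and ARSA, that is 5 enzymes and a cholesterol exporter. GAA, the glycogen-degrading acid α-glucosidase lacking in Pompe disease, was 8.84 at 0 h, 9.23, 9.27, 9.70, and 10.30 with miR-CTR, and 9.39, 9.22, 9.88, and 10.92 after miR-16. CTSF was 8.74 at 0 h and reached 9.96 and 10.35 at 48 h with miR-CTR and miR-16. NAGLU, an enzyme of heparan sulfate breakdown, had late changes since 0 h of 0.71 and 0.66 with miR-CTR and miR-16, and NPC1 of 0.69 and 0.89. ASAH1 had 0.56 and 0.65, and ARSA, the sulfatide-cleaving arylsulfatase, 0.73 and 0.52. The opposite course, past -0.5 with both mimics, was seen for 1 member (2.6%, beside 4.73% of all genes), ARSB, which cleaves dermatan sulfate, at 9.88 at 0 h and 8.94 and 9.15 at 48 h with miR-CTR and miR-16. PPT1, NEU1, and LAMP1 were also lower late than at 0 h with both mimics, by -0.23 and -0.54, -0.11 and -0.19, and -0.08 and -0.18. Together the members made up 0.715% of all normalized reads at 0 h, 0.891% at 48 h with miR-CTR, and 0.778% at 48 h with miR-16. Without MFSD12 these shares were 0.627%, 0.786%, and 0.739%.

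**Figure D3:**
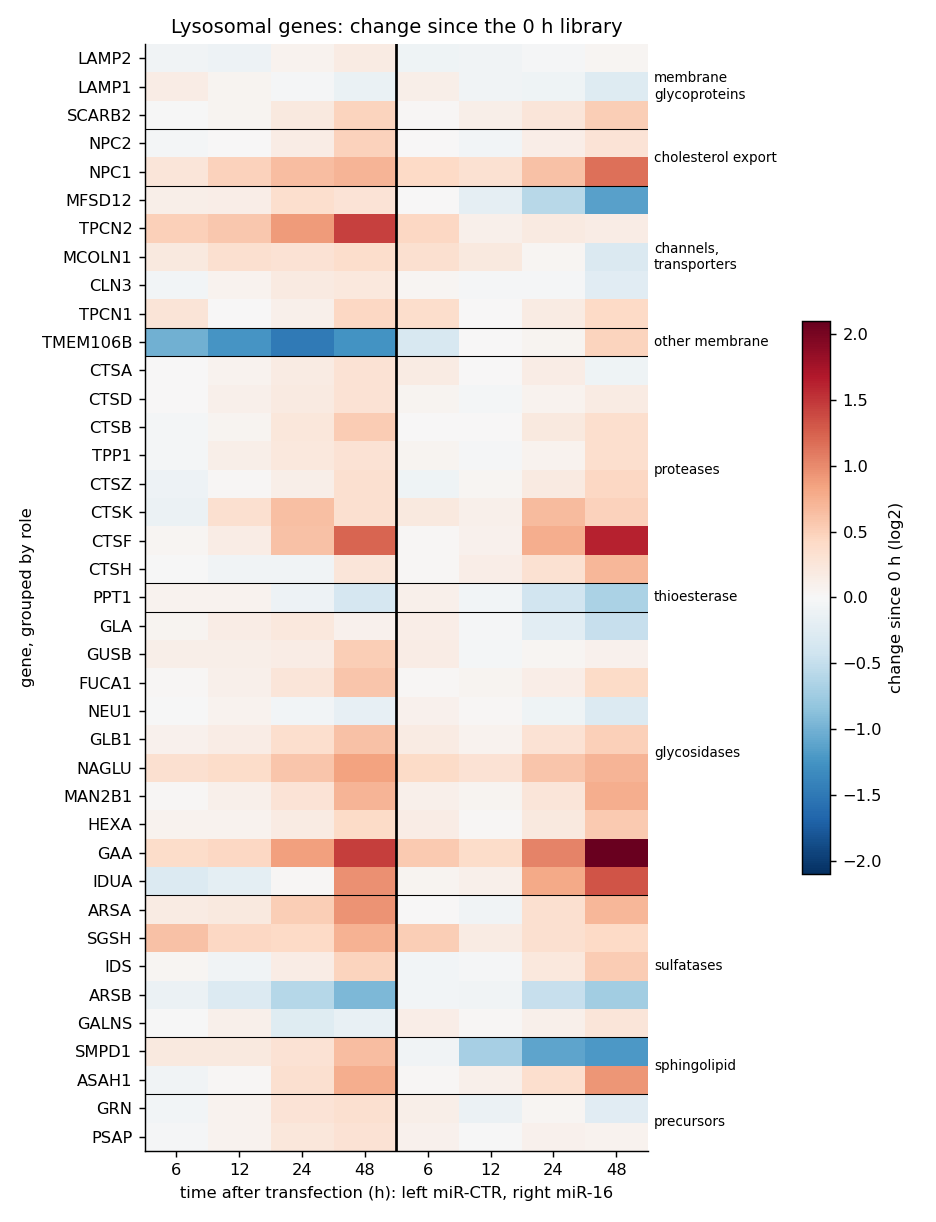
Change since the 0 h library (log2, colour; red above and blue below 0 h) for the 39 members, grouped by role with the lowest late logFC first in each role; columns are 6, 12, 24, and 48 h with miR-CTR (left of the black line) and with miR-16 (right). Most rows redden toward 48 h on both sides, up to 2.08 for GAA with miR-16, while SMPD1 and MFSD12 turn blue on the right alone and TMEM106B is deep blue on the left.

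**Figure D4:**
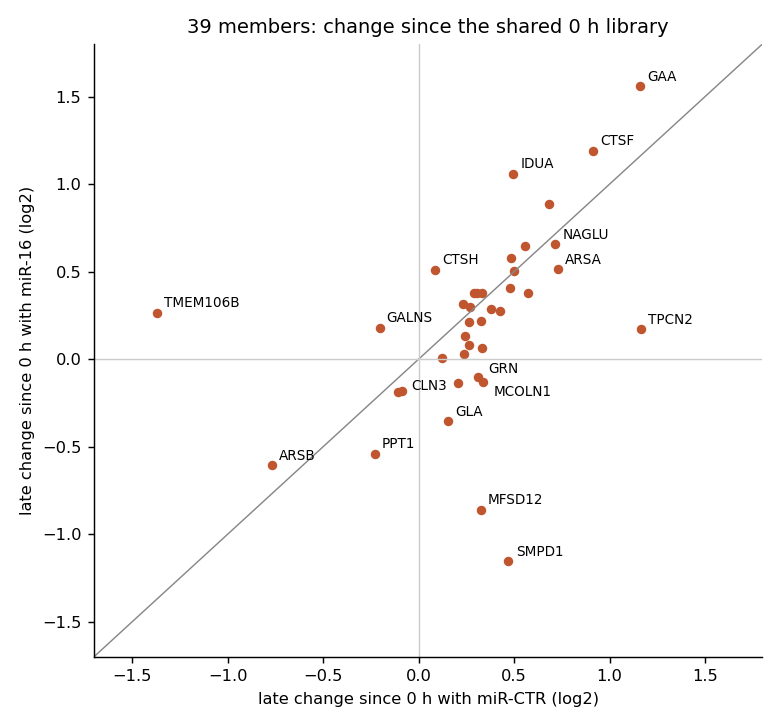
Late change since 0 h (log2) with miR-CTR (horizontal axis) and with miR-16 (vertical axis), 1 point per member; both axes use the same 0 h library, and the diagonal marks equal changes. GAA and CTSF lie far up near the diagonal, while SMPD1, MFSD12, and TPCN2 lie below it and TMEM106B above it.

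Promoters of many lysosomal genes hold the E-box-like element CACGTG, in its longer form TCACGTGA, which MITF, TFEB, and TFE3 bind. In the RefSeq promoters (GRCh38.p14, 250 bases before to 50 after the start, both strands, the short motif lying inside the long one) 30 of 39 members had an entry. CACGTG was found in 9 of them (30.0%), beside 7.3% of 35116 promoters and 10.4% of the 9599 promoters of genes in the table. TCACGTGA was found in 6 (20.0%), beside 1.0% and 2.0%. These 6 were LAMP1, CTSA, GAA, GALNS, CLN3, and MCOLN1. A copy from 5 of them is printed, with the long motif in capitals, since the genes differ in course.
GAA, chr17:80101540-80101565 (+): tcccgccggTCACGTGAcccgcctct
MCOLN1, chr19:7522600-7522625 (+): gctaccgggTCACGTGAccgaggcac
GALNS, chr16:88857106-88857131 (-): ggcaccgcgTCACGTGAcccgccgct
LAMP1, chr13:113297228-113297253 (+): cggcgcagcTCACGTGAcaagcgctg
CTSA, chr20:45891300-45891325 (+): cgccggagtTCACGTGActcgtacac

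Of the 6 members with the long motif, 4 were above 0 h late with miR-CTR and 2 below it. The late change since 0 h with miR-CTR was 1.16 for GAA, 0.34 for MCOLN1, 0.24 for CTSA, 0.20 for CLN3, -0.08 for LAMP1, and -0.20 for GALNS. The median with miR-CTR was 0.22 for the 6 members with TCACGTGA and 0.32 for the 24 without, and with miR-16 it was -0.05 and 0.24. Of the factors named, MITF lay between 13.15 and 13.67 over the libraries, with a late logFC of -0.08. TFE3 had a late logFC of 0.09. TFEB was 5.89 at 0 h, 6.43 and 6.76 at 24 and 48 h with miR-CTR, and 6.81 and 6.77 after miR-16, and its late logFC was 0.20. TFEC was not listed. None of the 3 factors was called between the mimics, and the counting SE of the late logFC was largest for TFEB (0.14). With miR-CTR and miR-16 the late change since 0 h was 0.705 and 0.90 for TFEB. It was 0.255 and 0.175 for MITF, and -0.21 and -0.12 for TFE3. These are mRNA values, and the activity of the factors was not measured.

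Other genes of the lysosome were examined from lists chosen by function, and their late calls are to be read beside 5.73% of all genes called down and 7.76% called up. Of 30 further hydrolases, 3 were called down, the acid phosphatase ACP2 (-0.82), the phospholipase PLA2G15 (-0.82), and PLBD2 (-0.65), and 2 up, the acid lipase LIPA (0.73) and the sulfatase ARSG (0.63), with a median of -0.04. Of 25 further membrane proteins, 3 were called down, the sialic acid exporter SLC17A5 (-0.76), TMEM55B (-0.72), and OSTM1 (-0.62), a partner of the chloride transporter CLCN7, and 1 up, the nucleoside transporter SLC29A3 (0.65), with a median of -0.20. SLC17A5 and OSTM1 resembled TPCN2 in that the miR-CTR values were above 0 h, by 0.90 and 0.53 late, while those with miR-16 differed from it by 0.14 and -0.08. ACP2 and PLA2G15 resembled SMPD1 in that the miR-16 values were below 0 h, by -0.92 and -0.86.

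The 18 subunits and accessory proteins of the V-ATPase, the proton pump that acidifies the lysosome, ranged from -0.43 to 0.37 and none was called. Of 24 genes that sort proteins to the lysosome, 1 was called, IGF2R (-0.62), the cation-independent mannose 6-phosphate receptor. Its value was 12.22 at 0 h, and late it lay 0.66 above that with miR-CTR and 0.03 above it with miR-16. The medians of the V-ATPase and sorting lists were -0.17 and -0.13, beside 0.01 for all genes. Both lists were thus placed slightly below all genes, with 1 call between them.

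**Figure D5:**
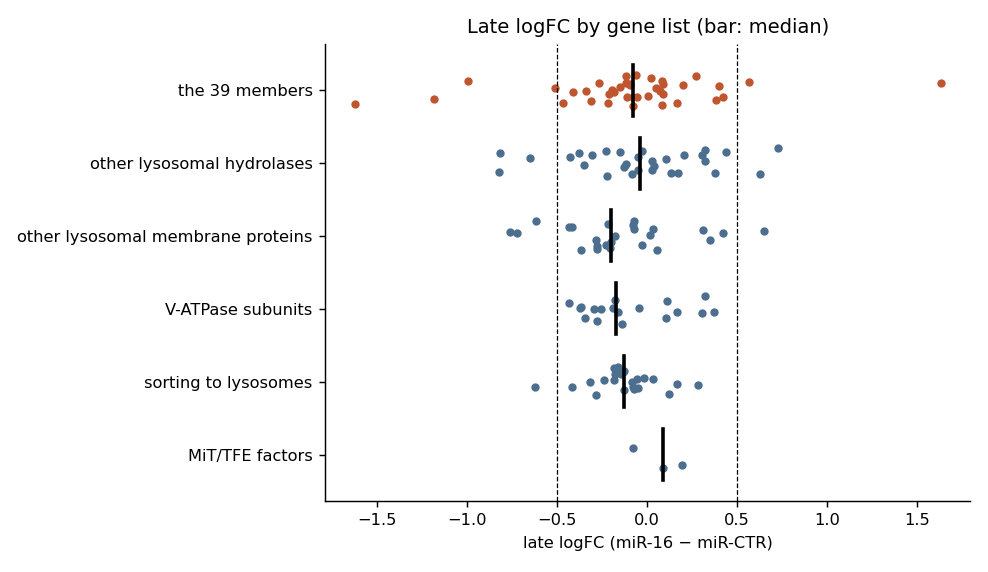
Late logFC (miR-16 minus miR-CTR, horizontal axis), 1 point per gene, for the 39 members (orange) and 5 other lists of lysosomal genes (blue), with black bars at the medians and dashed lines at 0.5 in size; points are spread vertically for view. No V-ATPase subunit passes the lines, and the members hold the extremes at -1.62 and 1.64.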

How the data were processed

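MP41 cells were harvested at 0 h and then 6, 12, 24, and 48 h after they received miR-16 or miR-CTR, with 1 library per condition. The submitters' processing notes name FastQC, STAR 2.4.0a, featureCounts, Subread 1.5.0-p3, and GRCh38. The annotation, the strand setting, and the filter on genes are not given in the sources used here. The authors deposited normalized log2 values with 2 decimals; 100.0% of the low values of each library were whole multiples of 1 value per library (0.8531 to 1.148), so the unit was read as log2(reads / size factor + 1), and the reads were recovered from it. No further normalization or filter was applied, and all 14839 genes entered each comparison.

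The logFC, its early and late means, the threshold of 0.5, and the counting SE were computed with Python 3.11.15, pandas 2.3.3, and numpy 2.4.6. The value of 1 read and the late calls were tested on simulated libraries with counting error only. The counting SE was not tested in this way. A 95% counting interval is 1.96 SE on either side, and it covers counting error only. Reads per kb were normalized reads over the summed exon length of GENCODE version 29. Seed and motif matches are exact. By symbol, 12985 genes matched 1 annotated gene each. GUSB has 11 annotated pseudogenes, and IDS and FUCA1 have 1 each, with which reads can be shared.

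Given with the values of every library were the members past 0.5 late and past 0.3 at both late times, the 3 with the most reads per kb at 0 h, LAMP1, LAMP2, and the two-pore channels. GAA was added after its values were seen. The members and lists were chosen with earlier results of these data known. The alternatives were quantile normalization, centring on the median gene, scaling by total reads, a pseudocount of 16, removal of the lowest 25% of expression, single times, a 1.5-fold threshold, the threshold at both times, and the 0 h library as the reference.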

Additional observations from a re-analysis of the deposited data

Results flagged for a closer look

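For 6 of the 39 members (15.4%, beside 9.3% of all genes) the miR-16 values at both 24 and 48 h lay on one side of the 0 h value and the miR-CTR values at both times on the other. These were SMPD1 with a late logFC of -1.625, MFSD12 with -1.185, GLA with -0.51, CLN3 with -0.34, GALNS with 0.385, and TMEM106B with 1.635. For the first 4 the miR-16 values were below 0 h, and for GALNS and TMEM106B they were above it. With 1 library per condition and a shared 0 h library, the difference between the mimics was not tested. The distances from 0 h were small for some of these values. For CLN3 the 24 h miR-16 library was at 10.01 and the 0 h library at 10.04.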

How the results depend on the processing

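No paired analysis was possible because each condition had 1 library, so that no replicate numbers exist to pair; each logFC was taken between libraries of the same time, and a fit with time as a block, which would treat the 4 times as replicates, was not run. The number of members called down late (4) lay between 3 and 6 under every alternative, but the genes changed with the reference. Against 0 h the 4 were SMPD1, MFSD12, ARSB, and PPT1, without TPCN2 and GLA. GLA was the member that left the call under quantile normalization (-0.48), median centring (-0.5), and total-read scaling (-0.496). The number called up late (2) was 1 with a 1.5-fold threshold, 1 with the threshold at both times, and 10 against the 0 h library. TMEM106B, at 0.265 against 0 h, was not among those 10. The number called early (2) was 1 at 6 h alone and 1 at both times. The median late logFC (-0.08) was 0.265 against 0 h, and the early median (0.00) was -0.07 at 12 h alone. The median change since 0 h with miR-16 (0.27) was 0.15 at 24 h and 0.36 at 48 h, and with miR-CTR (0.33) it was 0.22 and 0.41. The late logFC of TPCN2 (-0.99) turned to 0.17 against 0 h. Each of these comes from the other reference, time, or threshold itself. Of the 11 members that the naming rule gives in every library (GAA is not among them), 2 moved beyond their counting interval under quantile normalization, 0 under the other scalings or the pseudocount, 6 at either single time, and all 11 against 0 h, where the uncalled PSAP (-0.18 to 0.08) and LAMP2 (-0.11 to 0.005) also changed sign. The scalings moved the median late logFC of all genes to at most 0.017. With 1 culture per condition, differences below the unknown spread between cultures cannot be judged. CTSK, with 18 to 29 reads, is limited by depth.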

Other observations

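At 6 h, 29 of the 39 members had a higher value with miR-16 than with miR-CTR (all genes, 49.8%), and at 12 h 29 had a lower one (all genes, 48.1%), with median logFC of 0.06 and -0.07. These differences were small, and without replicates their size cannot be set against the spread between cultures.

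The 7 bases that match the miR-16 seed, TGCTGCT, also occur in any run of 3 CTG triplets. CTG is a leucine codon, and signal peptides, with which lysosomal enzymes begin, are commonly rich in leucine. A miR-16 match in the coding sequence was found in 22 of 39 members (56.4%), beside 36.9% of all protein-coding genes. In the first 90 bases of the coding sequence a match was found in 10 members (25.6%), beside 6.4% of all protein-coding genes. These were LAMP1, CTSA, CTSZ, CTSK, GLB1, HEXA, SGSH, ARSB, SCARB2, and FUCA1, with late logFC between -0.21 (CTSA) and 0.17 (ARSB), and none of them was called. Whether the coding matches lie in leucine codons or signal peptides was not tested.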
